A study of Mus musculus with 8 samples.

Results

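Small nucleolar RNAs (snoRNAs) and small Cajal body RNAs (scaRNAs) were read out of a total RNA sequencing experiment on mouse neutrophils. The genes described are the rows of the deposited count table annotated as snoRNA or scaRNA that reached a sum of at least 40 reads over the 8 libraries. They number 118 (104 snoRNAs and 14 scaRNAs) of 1558 annotated snoRNA and scaRNA rows and of 55450 rows in all. By name, 19 begin with Snord, 11 begin with Snora and 88 carry other names. They were thus selected on their sum of raw counts, and no test is drawn from that sum. Just inside the limit lay Gm23711 with 43 counts and Gm24607 with 42 counts, and just outside it Gm24894 with 39 counts and Gm25492 with 38 counts.

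The libraries form 4 groups of 2, all of them neutrophils separated by cell sorting for surface CD71, the receptor that takes up transferrin. The tumor CD71+ and tumor CD71- neutrophils came from mouse brain tumors of SB28, a mouse glioma cell line. The culture CD71+ and culture CD71- neutrophils are labelled as made in vitro, with naive bone marrow as their tissue. The labels give no strain, age, treatment or number of animals, and nothing in them says that the 2 samples of a group come from different animals or cultures. The p-values therefore reflect only how far these samples spread, and that spread may be technical.

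Box C/D snoRNAs guide 2′-O-methylation of ribosomal RNA, which fibrillarin (Fbl) carries out, and box H/ACA snoRNAs guide pseudouridylation by dyskerin (Dkc1). The scaRNAs carry the same boxes and guide the modification of spliceosomal RNAs in Cajal bodies. In vertebrates most of them lie in introns of host genes and are trimmed out of the spliced intron, while a few, such as the U8 snoRNA (Snord118), have promoters of their own. A read counted on such a gene can therefore come from the mature small RNA or from the host's unspliced RNA, and the count table does not separate them. In the GENCODE M21 annotation (mm10), 109 of the 118 genes lay inside a host gene on the same strand, 103 of them in a protein-coding host. The 109 shared 90 hosts, and 9 genes had no host.

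The RNAs that the results turn on are printed here 5′ to 3′ as the annotated DNA sense strand, from the GENCODE M21 transcripts. The first 4 hold box C (TGATGA, searched in the first 30 bases) and box D (CTGA, searched in the last 20 bases), which are in capitals. Snord17 lies at chr2:144265979-144266216 on the minus strand in Snx5, Snord15a at chr7:99482785-99482932 on the minus strand in Rps3, and Snord89 at chr1:39548745-39548854 on the minus strand in Gm15832. Gm25395, the annotated scaRNA with most counts of all 118, lies at chr1:87776938-87777209 on the plus strand in Atg16l1.
Snord17: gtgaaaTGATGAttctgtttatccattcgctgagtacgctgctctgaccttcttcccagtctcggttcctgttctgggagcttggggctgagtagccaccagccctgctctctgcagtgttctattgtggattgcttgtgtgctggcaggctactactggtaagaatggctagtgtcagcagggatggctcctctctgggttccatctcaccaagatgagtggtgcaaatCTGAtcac
Snord15a: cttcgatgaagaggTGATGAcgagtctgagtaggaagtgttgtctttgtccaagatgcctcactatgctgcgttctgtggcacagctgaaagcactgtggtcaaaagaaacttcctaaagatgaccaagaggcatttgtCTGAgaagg
Snord89: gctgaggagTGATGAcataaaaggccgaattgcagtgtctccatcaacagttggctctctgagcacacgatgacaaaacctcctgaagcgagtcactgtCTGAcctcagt
Gm25395: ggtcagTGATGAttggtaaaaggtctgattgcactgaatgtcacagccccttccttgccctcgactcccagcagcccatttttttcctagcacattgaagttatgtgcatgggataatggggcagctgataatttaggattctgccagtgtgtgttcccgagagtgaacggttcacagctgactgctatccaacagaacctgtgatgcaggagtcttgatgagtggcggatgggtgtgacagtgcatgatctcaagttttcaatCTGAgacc

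The next 4 hold box H (ANANNA, searched in the middle of the RNA) and box ACA (searched in the last 10 bases), again in capitals. They were chosen because 2 of them had the largest falls in culture CD71+ libraries and the other two rose in both tumor groups against culture. Snora57 lies at chr19:8888538-8888685 on the minus strand outside any host, Snora23 at chr7:110046364-110046547 on the plus strand in Ipo7, Snora31 at chr14:75847905-75848034 on the plus strand in Tpt1, and Gm23722 at chr1:39573746-39573875 on the minus strand in Rnf149.
Snora57: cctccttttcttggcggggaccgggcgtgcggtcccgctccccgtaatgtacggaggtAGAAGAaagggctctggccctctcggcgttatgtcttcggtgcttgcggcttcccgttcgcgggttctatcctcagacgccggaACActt
Snora23: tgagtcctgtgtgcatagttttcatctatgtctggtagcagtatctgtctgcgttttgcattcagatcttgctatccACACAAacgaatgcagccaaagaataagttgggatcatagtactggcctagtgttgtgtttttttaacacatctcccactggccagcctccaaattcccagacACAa
Snora31: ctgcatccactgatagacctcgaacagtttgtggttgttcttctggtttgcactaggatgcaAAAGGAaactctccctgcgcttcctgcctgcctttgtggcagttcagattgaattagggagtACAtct
Gm23722: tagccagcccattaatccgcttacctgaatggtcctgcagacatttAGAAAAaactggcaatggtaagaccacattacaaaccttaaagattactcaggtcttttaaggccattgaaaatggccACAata

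The last 4 are 2 pairs of near-identical H/ACA sequences whose hosts differ. Gm24727 lies at chr8:33691801-33691944 on the plus strand in Gsr, and Gm25291 at chr11:51737779-51737922 on the minus strand in Sec24a, with 93.8% identity between them. Gm25776 lies at chr12:91573430-91573572 on the minus strand in Gtf2a1, and Gm25848 at chr16:32243712-32243855 on the minus strand in Fbxo45, with 89.6% identity.
Gm24727: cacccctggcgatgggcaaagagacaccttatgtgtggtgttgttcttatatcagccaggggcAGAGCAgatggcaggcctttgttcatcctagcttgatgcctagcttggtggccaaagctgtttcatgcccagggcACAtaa
Gm25291: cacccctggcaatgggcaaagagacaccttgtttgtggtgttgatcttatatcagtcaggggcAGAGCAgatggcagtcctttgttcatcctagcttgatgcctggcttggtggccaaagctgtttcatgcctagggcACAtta
Gm25776: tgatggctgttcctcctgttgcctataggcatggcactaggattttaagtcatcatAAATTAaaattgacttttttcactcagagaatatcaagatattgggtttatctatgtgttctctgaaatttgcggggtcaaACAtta
Gm25848: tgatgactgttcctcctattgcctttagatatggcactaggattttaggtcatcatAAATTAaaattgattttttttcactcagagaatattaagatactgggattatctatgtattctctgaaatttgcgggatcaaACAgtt

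The names followed the boxes for most genes. Both C/D boxes were found in 12 of the 19 Snord genes (63.2%) and in 70 of all 98 annotated Snord rows (71.4%), while both H/ACA boxes were found in 10 of the 11 Snora genes (90.9%) and in 37 of all 42 annotated Snora rows (88.1%). Of the 88 genes with other names, 16 held the C/D boxes and 48 the H/ACA boxes. The Snord genes had a median length of 81 bases and the Snora genes one of 132 bases. ACA, CTGA and ANANNA are short and the windows were searched on the sense strand only, so a match describes the sequence and is not evidence of a functional box.

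Counts on these genes were few and unevenly spread. All 118 together held 80025 counts, of which the 4 largest (Gm25395, Snord17, Scarna2 and Gm22009) took 46.5% and the 10 largest 69.3%, while the median gene had 100.5 counts over all 8 libraries. A count in every library was present for 82 genes. The filter on low counts passed 90 genes (15 Snord, 11 Snora and 64 others, 12 of them scaRNAs) into the test, and 28 were not tested. Of the 90, 47 had at least 10 counts in a library of every group, so many of the others passed through the groups where they were high.

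The choice by summed counts took few rows that lie in exons, which is a description of the choice and not a test. Of 229 snoRNA and scaRNA rows that overlap an exon of another gene on the same strand, 4 (1.75%) reached the sum of 40, against 114 of 1329 (8.58%) elsewhere, and 199 (86.9%) were at 0 counts in all libraries, against 1053 (79.2%) elsewhere. None of the 41 Snord rows inside exons reached it, their largest sum being 19 counts, whereas 19 of the 57 Snord rows outside exons did. The 10 rows inside Gas5, a noncoding host known for its intronic snoRNAs, all overlapped annotated Gas5 exons and had 0 counts, while Gas5 itself had 4458 counts. The same held for the 8 rows in Snhg1, the 5 in Snhg12 and the 2 in Snhg5, hosts with 1196, 571 and 993 counts. Both annotated copies of Rmrp, the RNA of RNase MRP, overlap each other and also had 0 counts in every library. Those RNAs are not measured here, whatever their level in the cells.

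The summed level of the 118 genes set the culture CD71- libraries apart. The genes took 0.0593% and 0.0545% of all counts in the tumor CD71+ libraries, against 0.0589% and 0.0488% in the tumor CD71- libraries. In culture they took 0.0369% and 0.049% in the CD71+ libraries, against 0.124% and 0.204% in the CD71- libraries. The tumor groups overlapped and the culture groups did not. With 2 libraries a group an exact permutation test cannot reach p = 0.05, and none was run.

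The excess in culture CD71- libraries lay in the RNAs of 100 bases or more. Genes annotated with 150 bases or more took 0.0184% and 0.027% of counts in the culture CD71+ libraries, against 0.0873% and 0.149% in the culture CD71- libraries. Genes of at least 100 but under 150 bases took 0.015% and 0.0174% in culture CD71+ libraries, against 0.0335% and 0.0523% in culture CD71- libraries. Genes under 100 bases took 0.00355% and 0.00462% in culture CD71+ libraries, against 0.00318% and 0.00229% in culture CD71- libraries. How well the library preparation recovered RNAs this short was not measured, so the shares of the length classes are not compared within a library.

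**Figure D1:**
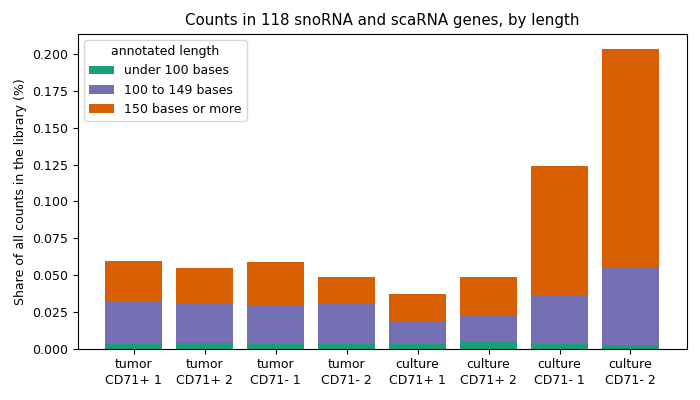
Share of all counts in each library (%) that fell on the 118 snoRNA and scaRNA genes, stacked by annotated length, with 1 bar for each library. The culture CD71- bars reach 0.124% and 0.204%, and most of their height is RNAs of 150 bases or more.

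In culture, sorted CD71+ neutrophils had lower levels of many snoRNAs and scaRNAs than CD71- neutrophils. Of the 90 genes tested, 23 fell (25.6%) and 2 rose (2.22%) by edgeR's quasi-likelihood test at a Benjamini-Hochberg adjusted p under 0.05, where 8.36% of all 15975 genes fell, 7.88% rose and 16.2% changed in either direction. The median log2 fold change was -0.31 over the 90 and 0.03 over all genes tested. By name, 5 of the 11 Snora genes fell and none rose (median -1.39), and 2 of the 15 Snord genes fell and 1 rose (median 0.34). By length, 8 of 13 genes of 150 bases or more fell and none rose (median -1.39), 14 of 56 genes of at least 100 but under 150 bases fell and 2 rose (median -0.41), and 1 of 21 genes under 100 bases fell and none rose (median 0.80). The choice by summed raw counts weighs the culture CD71+ libraries more, which were deeper (22615813 and 19385298 counts, against 13816733 and 9598959 for culture CD71-). Its part in the medians by length was not tested. The median of the genes of 150 bases or more was -1.07 when libraries were scaled to total counts, and the median of all 90 was then -0.01. By DESeq2 and at an unadjusted p under 0.05 by edgeR, again 0 Snora genes and 0 genes of 150 bases or more rose, and 0 and 1 of the genes under 100 bases did. The count of 23 was 10 without culture CD71+ replicate 1 and 15 without culture CD71+ replicate 2.

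**Figure D2:**
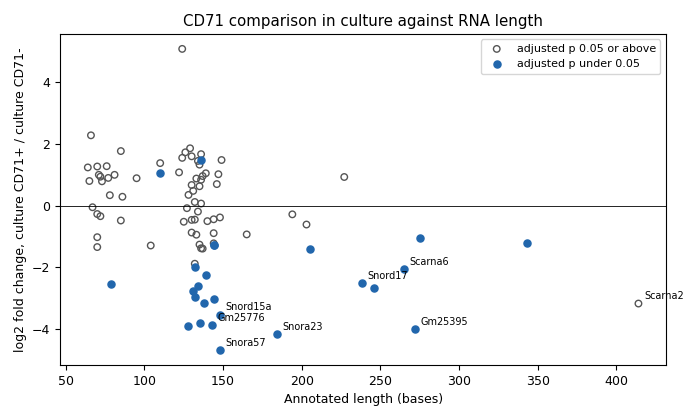
Fitted log2 fold change between culture CD71+ and culture CD71- libraries against the annotated length in bases, with 1 point for each of the 90 genes tested and filled points for an adjusted p under 0.05. The filled points of 150 bases or more all lie below 0, and the highest open point is Gm23172, which had 0 counts in both culture CD71- libraries, so that its fitted value is no bound.

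Among the box C/D snoRNAs, Snord17, the longest Snord gene, had 26.9 and 29.1 CPM (counts scaled to library size, with TMM factors) in culture CD71+ libraries, against 117 and 200 CPM in culture CD71- libraries. Its log2 fold change was -2.50 ± 0.31 (SE, n = 2 each, adjusted p = 0.00043 by edgeR's quasi-likelihood test). Snord15a, which guides methylation of the large ribosomal subunit's RNA, had 1.89 and 3.18 CPM in culture CD71+ libraries, against 20.1 and 38.4 CPM in culture CD71- libraries, a log2 fold change of -3.53 ± 0.42 (adjusted p = 0.00017, edgeR). Both groups lay clear of each other for both RNAs. Snord118, the U8 snoRNA needed to process the precursor of the large subunit's RNAs, had 4.09 and 2.59 CPM in culture CD71+ libraries and 8.17 and 7.89 CPM in culture CD71- libraries, which missed the threshold (log2 fold change -1.26 ± 0.41, adjusted p = 0.0527, edgeR). Snord89 rose, with 2.32 and 2.04 CPM in culture CD71+ libraries, against 1.13 and 0.906 CPM in culture CD71- libraries (1.07 ± 0.31, adjusted p = 0.0293, edgeR). The call of Snord89 was lost without any 1 of the 4 culture libraries (adjusted p = 0.0583 to 0.199, edgeR).

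Among genes that passed with a mean of at least 2 CPM, the 2 largest falls were at H/ACA snoRNAs. The class as a whole did not stand out when genes were split by boxes in place of names. Of 17 tested genes with C/D boxes 7 fell and 1 rose (median log2 fold change -1.21). Of 44 with H/ACA boxes 14 fell and 1 rose (median -0.54). Snora57 had 0.579 and 0.691 CPM in culture CD71+ libraries, against 8.71 and 24.4 CPM in culture CD71- libraries (log2 fold change -4.68 ± 0.74, adjusted p = 0.00235, edgeR). That Snora57 call was lost without culture CD71+ replicate 1 (adjusted p = 0.0548, edgeR). Snora23 had 3.96 and 5.36 CPM in culture CD71+ libraries, against 51.5 and 115 CPM in culture CD71- libraries (-4.15 ± 0.54, adjusted p = 0.00155, edgeR). Snora73b, the U17 snoRNA that takes part in cleavage of the ribosomal RNA precursor, had 8.23 and 8.05 CPM in culture CD71+ libraries, against 14.9 and 28 CPM in culture CD71- libraries (-1.39 ± 0.30, adjusted p = 0.00712, edgeR). Its call was lost without either culture CD71+ library (adjusted p = 0.0723 and 0.0678, edgeR) and without culture CD71- replicate 2 (adjusted p = 0.0548, edgeR). Snora31 did not pass, with 1.31 and 1.66 CPM in culture CD71+ libraries and 2.55 and 2.9 CPM in culture CD71- libraries (-0.87 ± 0.33, adjusted p = 0.092, edgeR).

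Of the 12 scaRNAs tested, 5 fell in culture CD71+ libraries and none rose (0 by DESeq2 and 1 at an unadjusted p under 0.05 by edgeR). Gm25395 had 21.6 and 27.1 CPM in culture CD71+ libraries, against 326 and 446 CPM in culture CD71- libraries, a log2 fold change of -3.99 ± 0.32 (adjusted p = 2e-05, edgeR). Scarna6 lies in the same host, Atg16l1, and fell by less, with 4.18 and 4.22 CPM in culture CD71+ libraries, against 16.6 and 17.9 CPM in culture CD71- libraries (-2.04 ± 0.27, adjusted p = 0.00023, edgeR). Scarna2, a host-free scaRNA that guides modification of the U2 spliceosomal RNA, shows the largest spread between replicates among the named scaRNAs. It had 12.6 and 28.8 CPM in culture CD71+ libraries and 41.6 and 332 CPM in culture CD71- libraries, and its fitted log2 fold change of -3.17 ± 1.33 missed the threshold (adjusted p = 0.208, edgeR).

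Most host genes did not fall with these RNAs. Ipo7, which codes for a nuclear import receptor and holds Snora23, rose in culture CD71+ libraries by 0.67 ± 0.16 on the log2 scale (71.3 and 65.1 CPM, against 41.9 and 43.8 CPM in culture CD71- libraries, adjusted p = 0.0121, edgeR). Snx5, which codes for a sorting nexin and holds both Snord17 and Gm26165, rose by 0.93 ± 0.18 (122 and 102 CPM in culture CD71+ libraries, against 58.4 and 58.9 CPM in culture CD71- libraries, adjusted p = 0.00287, edgeR), while Gm26165 fell by 3.15 ± 0.54 (adjusted p = 0.00155, edgeR). Atg16l1, an autophagy gene, fell by 0.59 ± 0.17 (adjusted p = 0.0259, edgeR), and Rps3, the ribosomal protein gene around Snord15a, had a log2 fold change of 0.34 ± 0.22 (adjusted p = 0.32, edgeR). Of the 18 genes that fell and had a tested host, the host fell in 3, rose in 3 and did not pass in 12. The 2 genes that rose, Snord89 and Gm22748, had hosts that did not pass. Leaving out culture CD71+ replicate 1 ended the calls of Ipo7 (adjusted p = 0.142), Snx5 (0.0545) and Atg16l1 (0.243, edgeR for each), and leaving out culture CD71+ replicate 2 those of Ipo7 (adjusted p = 0.0573) and Atg16l1 (0.153), as did leaving out culture CD71- replicate 1 (0.11) or total counts (0.281) for Atg16l1.

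In the culture CD71 comparison, genes of 1 host had unlike fitted values in some hosts and similar ones in others. Within Ipo7, Snora23 fell by 4.15, while Gm25636 had a log2 fold change of -0.94 that did not pass (adjusted p = 0.316, edgeR). Within Rpsa, which codes for a ribosomal protein, Gm26448 had -0.61 (adjusted p = 0.261) and Snora62 1.48 (adjusted p = 0.211). Values were closer within Cep295, where Gm24339 had 1.28 (adjusted p = 0.081, edgeR) and Scarna9 1.27 (adjusted p = 0.255, edgeR). Within Snx5, Snord17 and Gm26165 both fell, by 2.50 and 3.15. The difference between genes of 1 host was not tested.

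**Figure D3:**
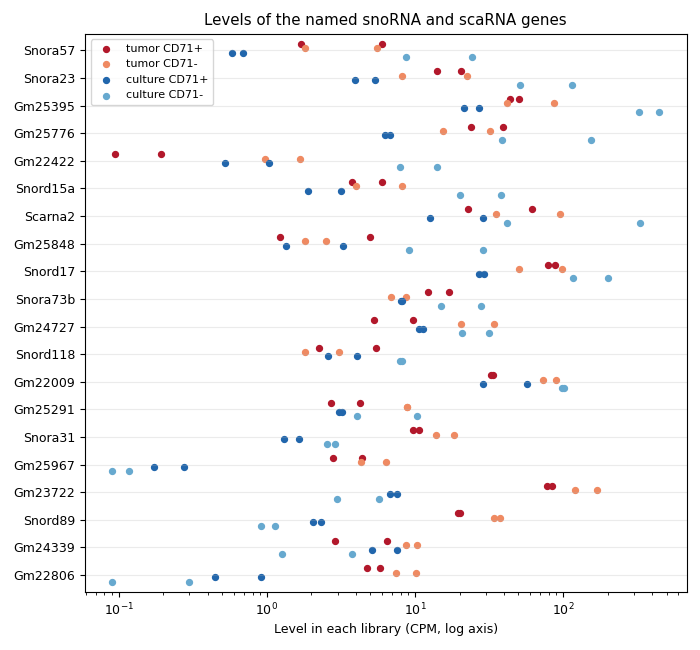
Level of each named snoRNA and scaRNA gene in each of the 8 libraries (CPM on TMM-scaled library sizes, log axis), with 1 point for each library and colors for the groups, ordered by the ratio of culture CD71+ to culture CD71- means. From Snora57 at the top to Gm22009 the culture CD71- points lie right of the culture CD71+ points, and from Snora31 to Gm22806 the tumor points lie apart from the culture points except at Gm24339.

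Other structured RNAs without a host moved with these genes in culture. Of the 7 tested on the fixed list of structured noncoding RNAs, 4 fell in culture CD71+ libraries and none rose (median log2 fold change -1.25), and by DESeq2 or at an unadjusted p under 0.05 by edgeR 0 rose. Vaultrc5, a vault RNA, fell by 3.45 on the log2 scale, with 2.16 and 2.14 CPM in culture CD71+ libraries, against 19 and 28.4 CPM in culture CD71- libraries (adjusted p = 3.8e-05, edgeR). Rnu11, the U11 RNA of the minor spliceosome, fell by 2.91 (adjusted p = 0.00016, edgeR), Rpph1, the RNA of RNase P, by 2.87 (adjusted p = 0.0012, edgeR), and Rnu12, the minor spliceosome's U12 RNA, by 1.25 (adjusted p = 0.0178, edgeR). Rn7sk, the abundant regulator of transcription elongation, had 2210 and 2730 CPM in culture CD71+ libraries and 2720 and 3200 CPM in culture CD71- libraries (-0.26, adjusted p = 0.555, edgeR). Rpph1 overlaps an exon of Ccnb1ip1 on the same strand, and its count is uncertain. Terc, the telomerase RNA, had at most 0.997 CPM in any library.

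Mitochondrial transcripts moved with the same libraries. Their share of all counts was 1.45% and 2.17% for culture CD71+, against 7.09% and 12% for culture CD71-. For tumor CD71+ it was 0.829% and 1.04%, against 0.413% and 0.202% for tumor CD71-. With the mitochondrial genes left out of the total, the 118 genes took 0.0375% and 0.05% of counts in the culture CD71+ libraries, against 0.133% and 0.232% in the culture CD71- libraries. Depth also moved, with 22615813 and 19385298 counts for culture CD71+, against 13816733 and 9598959 for culture CD71-, and with 11147646 to 11898224 in tumor libraries. Whether mitochondrial share, depth or RNA quality takes part in the snoRNA difference was not tested. In sorted bulk samples, fewer cells of a type and less RNA per cell cannot be told apart.

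In the tumor, sorted CD71+ and CD71- neutrophils differed at few snoRNAs, in a comparison in which many genes changed. Of the 90 tested, 4 rose (4.44%) and 9 fell (10%) in tumor CD71+ libraries by the same test, where 26.2% of all genes rose, 17.3% fell and 43.5% changed in either direction. By name, 1 of the 15 Snord genes rose and 1 fell, and 1 of the 11 Snora genes rose and 0 fell (1 fell by DESeq2). The median log2 fold change was -0.47 over the 90 and 0.13 over all genes tested. The counts and the median over the 90 depended on the scaling. With DESeq2 size factors 16 fell and 3 rose (median -0.68), and with total counts 5 fell and 8 rose (median 0.09), a scaling that moved the median of all genes by 0.56. Without either tumor CD71- library, or without either culture CD71+ library, 1 rose, and without tumor CD71- replicate 1, 5 fell.

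Several falls in tumor CD71+ libraries stood beside falls of the hosts, some of which depended on the scaling. Gm24727 had 9.71 and 5.27 CPM in tumor CD71+ libraries, against 34.1 and 20.4 CPM in tumor CD71- libraries (log2 fold change -1.86 ± 0.34, adjusted p = 0.00087, edgeR), and its host Gsr, glutathione reductase, fell by 1.19 ± 0.20 (adjusted p = 0.00052, edgeR). Gm25291 had 4.23 and 2.73 CPM in tumor CD71+ libraries, against 8.8 and 8.87 CPM in tumor CD71- libraries (-1.34 ± 0.44, adjusted p = 0.0236, edgeR), and its host Sec24a, a coat protein gene of vesicles leaving the endoplasmic reticulum, fell by 0.62 ± 0.16 (adjusted p = 0.0075, edgeR). The scaRNA Gm22009 had 32.7 and 33.7 CPM in tumor CD71+ libraries, against 89.2 and 73.4 CPM in tumor CD71- libraries (-1.29 ± 0.26, adjusted p = 0.00185, edgeR), beside a fall of 0.74 ± 0.16 of its host Kpna4, an importin gene (adjusted p = 0.00259, edgeR). Gm24727 and Gm25291 have 3 and 5 other annotated rows at 90% identity or more, so their counts are uncertain. Of the 8 genes that fell and had a tested host, the host fell in 5 and did not pass in 3. Gm22422 in Trmt10c rested on 3 counts in the tumor CD71+ libraries, against 19 in the tumor CD71- libraries, a ratio of 0.108 (95% interval 0.0205 to 0.367, counting error only). The call of Gm25291 was lost without tumor CD71+ replicate 2 (adjusted p = 0.121, edgeR), tumor CD71- replicate 1 (0.0609) or tumor CD71- replicate 2 (0.0733), that of Sec24a without tumor CD71+ replicate 2 (0.0555), and that of Gm22422 without tumor CD71+ replicate 2 (0.0537) or tumor CD71- replicate 1 (0.0745). With total counts Gm25291 (-0.79, adjusted p = 0.164, edgeR), Sec24a (-0.05, 0.825) and Kpna4 (-0.18, 0.417) did not pass, while Gm24727, Gsr and Gm22009 still did.

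Of the 4 rises, Snora73b was the one with over 100 counts in each group. It had 16.9 and 12.3 CPM in tumor CD71+ libraries, against 6.84 and 8.73 CPM in tumor CD71- libraries (0.91 ± 0.33, adjusted p = 0.0382, edgeR). Its host Rcc1, the exchange factor of the Ran GTPase, rose by 1.42 ± 0.37 (adjusted p = 0.0078, edgeR). The call of Snora73b was lost with DESeq2 size factors (0.69, adjusted p = 0.106, edgeR) and without any 1 library of these 2 groups except tumor CD71+ replicate 2, or without either culture CD71+ library (adjusted p = 0.055 to 0.327), and that of Rcc1 without tumor CD71- replicate 2 (0.124). Snora73b also overlaps an exon of Gm17300 on the opposite strand and is 96.6% identical to Snora73a, so its count is uncertain. Exons of Rcc1 overlap Snhg3 on the same strand, so the count of Rcc1 is uncertain too. Gm23172 lies in Mertk, a receptor for the uptake of dying cells that marks macrophages. It had 21 and 31 counts in tumor CD71+ libraries, against 0 in both tumor CD71- libraries. That is at least 5.91-fold higher against a floor of 3 counts per library. Gm23172 passed the filter on low counts only through the tumor CD71+ libraries, so its p-value is not given as support. Mertk itself rose by 4.16 ± 0.38 (adjusted p = 2.6e-05, edgeR), and per kilobase Gm23172 stood at 0.506 of the Mertk exons in tumor CD71+ libraries and at 0.563 of them in culture CD71+ libraries. Gm23010 in Tbxas1 had 12 counts over the tumor CD71+ libraries, against 0 over the tumor CD71- libraries, at least 1.36-fold higher. The 16 macrophage and monocyte markers summed to 3740 to 4050 CPM in tumor CD71+ libraries, against 809 to 848 CPM in tumor CD71- libraries, with 14 of the 15 tested higher, and the 10 microglia markers to 1200 to 1690 CPM, against 175 to 238 CPM. Their part in these rises was not tested.

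The CD71 effect differed between tumor and culture at 15 of the 90 genes (16.7%), beside 15.5% of all genes by the same test of the difference. It was higher in the tumor at 12 (10.8% of all genes) and lower at 3 (4.71% of all genes). The 12 were 5 without tumor CD71- replicate 2 and 7 without culture CD71+ replicate 1, and the 3 were 8 without culture CD71- replicate 1 and 1 without culture CD71+ replicate 1 or without tumor CD71- replicate 2. Snora57 was at 4.73 ± 1.02 (log2 fold change in the tumor minus that in culture, adjusted p = 0.0132, edgeR), Snora23 at 4.33 ± 0.73 (adjusted p = 0.00688) and Gm25395 at 3.54 ± 0.41 (adjusted p = 0.00059). In the tumor these had CD71 log2 fold changes of 0.05 ± 0.72, 0.17 ± 0.52 and -0.45 ± 0.29, none of which passed. The 3 lower differences were at Gm24339 (-2.30 ± 0.67, adjusted p = 0.0349, edgeR), Snord89 (-1.94 ± 0.38, adjusted p = 0.00513) and Gm23722 (-1.50 ± 0.36, adjusted p = 0.0134). Without culture CD71+ replicate 1 the calls of Snora57 (adjusted p = 0.0794), Snora23 (0.0584), Gm24339 (0.0549) and Gm23722 (0.0526, edgeR for each) were lost, without culture CD71+ replicate 2 those of Snora57 (0.0679) and Gm24339 (0.135), and without tumor CD71- replicate 2 those of Snora57 (0.0547) and Gm23722 (0.0618). Gm24339 passed by a narrow margin and was also lost without culture CD71- replicate 2, tumor CD71+ replicate 1, tumor CD71- replicate 1 or tumor CD71- replicate 2 (adjusted p = 0.0611 to 0.119) and with the replicate block (0.0549). Of the 13 genes with a tested host, the host's own difference was not called in 12 and had the opposite sign in 1.

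More snoRNAs, like more of all genes, passed the test between the origins than between the sort fractions. In either direction 52.2% of the 90 passed in the CD71- fraction and 35.6% in the CD71+ fraction, below the shares of all genes. In tumor CD71- libraries against culture CD71- libraries, 29 of the 90 genes rose (32.2%) and 18 fell (20%), where 30.3% of all genes rose, 36.8% fell and 67.1% changed in either direction. In tumor CD71+ libraries against culture CD71+ libraries, 28 rose (31.1%) and 4 fell (4.44%), where 30.3% of all genes rose, 27.6% fell and 57.9% changed in either direction. The medians over the 90 were 0.18 for CD71- and 0.80 for CD71+, beside -0.28 and -0.08 over all genes. Of the 15 Snord genes 5 rose and 4 fell for CD71-, and 5 rose and 0 fell for CD71+. Of the 11 Snora genes 1 rose and 5 fell for CD71-. For CD71+, 4 Snora genes rose and 0 fell (1 at an unadjusted p under 0.05 by edgeR). Total counts as the scaling moved the median of all genes by -0.93 and -0.67. The counts over the 90 were then 14 higher and 29 lower for CD71-, and 17 higher and 9 lower for CD71+. The 18 falls for CD71- were 7 without tumor CD71- replicate 2, 11 without culture CD71- replicate 2 and 12 without tumor CD71- replicate 1. The 28 rises for CD71+ were 12 without culture CD71+ replicate 1, 18 without culture CD71+ replicate 2 and 17 without tumor CD71+ replicate 1, and the 4 falls ranged between 0 and 7 when 1 library was left out. Origin, tumor and culture, is confounded with the way the cells were obtained, and these cannot be told apart.

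Among genes with a mean of at least 2 CPM, the rises in the tumor with the largest fitted log2 fold changes included Gm25967, Gm22806, Snord89 and Gm23722. Snord89 had 20.2 and 19.4 CPM in tumor CD71+ libraries, against 2.32 and 2.04 CPM in culture CD71+ libraries (3.18 ± 0.25, adjusted p = 1.3e-07, edgeR). In the CD71- fraction it had 37.8 and 34.1 CPM in tumor libraries, against 1.13 and 0.906 CPM in culture libraries (5.11 ± 0.30, adjusted p = 4.2e-09, edgeR). Its host, the noncoding Gm15832, had 363 and 349 CPM in tumor CD71- libraries, against 17 and 6.98 CPM in culture CD71- libraries (4.86 ± 0.33, adjusted p = 1e-07, edgeR). Gm23722, in the neighboring ubiquitin ligase gene Rnf149, had 120 and 169 CPM in tumor CD71- libraries, against 5.74 and 2.99 CPM in culture CD71- libraries (5.01 ± 0.29, adjusted p = 4.3e-09, edgeR), and Rnf149 rose by 4.04 ± 0.22 (adjusted p = 1.9e-09, edgeR). Exons of Gm15832 and Rnf149 overlap on the same strand, so the split of their counts is uncertain.

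Gm25967 and Gm22806 rested on low counts in culture. Both passed the filter on low counts through the tumor libraries, where they were high, so their p-values are not given as support. Gm25967 had 4.33 and 6.37 CPM in tumor CD71- libraries, against 0.118 and 0.0906 CPM in culture CD71- libraries. That is 3 counts over both culture CD71- libraries, a ratio of 49.8 with a 95% interval of 16.4 to 247 for counting error only. Its host Dirc2 rose by 4.17 ± 0.20 (adjusted p = 7.9e-10, edgeR). Gm22806 had 7.4 and 10.1 CPM in tumor CD71- libraries, against 0.296 and 0.0906 CPM in culture CD71- libraries (5.32 ± 0.60). Its host Cks2, a regulator of cyclin-dependent kinases, rose by 2.15 ± 0.25 (adjusted p = 5.2e-06, edgeR). Gm22806 has 4 other annotated rows at 90% identity or more, so its count is uncertain. Snora31 rose more than its host, with 18.4 and 13.9 CPM in tumor CD71- libraries, against 2.55 and 2.9 CPM in culture CD71- libraries (2.57 ± 0.32, adjusted p = 9e-06, edgeR), while Tpt1, the host around it, rose by 0.52 ± 0.22 (adjusted p = 0.0455, edgeR). With total counts Tpt1 was at -0.39. Its call was lost without culture CD71- replicate 1 (adjusted p = 0.313, edgeR), tumor CD71- replicate 2 (0.142) or either tumor CD71+ library (0.0639 and 0.0634).

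Several falls in the tumor CD71- libraries were at the RNAs that stood high in culture CD71- libraries. Gm25395 had 86.6 and 42 CPM in tumor CD71- libraries, against 326 and 446 CPM in culture CD71- libraries (-2.58 ± 0.30, adjusted p = 1.3e-05, edgeR), while Atg16l1 rose by 0.99 ± 0.17 (adjusted p = 0.00014, edgeR). With total counts Atg16l1 was at 0.05 and did not pass (adjusted p = 0.806, edgeR). Gm25848 had 2.51 and 1.8 CPM in tumor CD71- libraries, against 9.12 and 28.6 CPM in culture CD71- libraries (-3.11 ± 0.78, adjusted p = 0.00611, edgeR), and Gm22422 had 1.68 and 0.97 CPM, against 7.94 and 14.1 CPM (-3.04 ± 0.51, adjusted p = 0.00014, edgeR). The call of Gm25848 was lost without tumor CD71- replicate 2 (adjusted p = 0.0606, edgeR). Snora23 fell by 2.43 ± 0.52 (adjusted p = 0.00293, edgeR), and Ipo7 rose by 1.13 ± 0.16 (adjusted p = 3.6e-05, edgeR), though with total counts Ipo7 was at 0.20 and did not pass (adjusted p = 0.293, edgeR). The CD71 comparison in culture and this comparison share the culture CD71- libraries.

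In the CD71+ fraction Snora23, Snord17 and Gm25395 rose in the tumor. Snora23 had 20.6 and 14.1 CPM in tumor CD71+ libraries, against 3.96 and 5.36 CPM in culture CD71+ libraries (1.90 ± 0.52, adjusted p = 0.0129, edgeR). Snord17 had 79.3 and 88 CPM in tumor CD71+ libraries, against 26.9 and 29.1 CPM in culture CD71+ libraries (1.58 ± 0.31, adjusted p = 0.00104, edgeR). Gm25395 had 50.5 and 43.7 CPM in tumor CD71+ libraries, against 21.6 and 27.1 CPM in culture CD71+ libraries (0.95 ± 0.29, adjusted p = 0.0145, edgeR). The calls of Snora23 and Gm25395 were lost without culture CD71+ replicate 1 (adjusted p = 0.113 and 0.117, edgeR) and without tumor CD71+ replicate 1 (0.0846 and 0.0765), and that of Snora23 also without culture CD71+ replicate 2 (0.0658). With total counts Gm25395 was at 0.27 and did not pass (adjusted p = 0.355, edgeR). The 4 falls of this fraction, at Gm22422, Gm23908, Gm22728 and Gm22615, each rested on 5 or fewer counts over both tumor CD71+ libraries.

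Across the 80 tested genes with a tested host, which lie in 71 hosts, the log2 fold changes of gene and host were set side by side as a description. Pearson's r was 0.53 in the tumor CD71 comparison, 0.57 in tumor CD71- against culture CD71-, 0.67 in tumor CD71+ against culture CD71+ and 0.19 in the culture CD71 comparison. These are correlations across genes of the same libraries, which are not independent replicates. They include Gm23172, Gm23010 and Gm22615, which had 0 counts in both tumor CD71- libraries. Gm23172 also had 0 counts in both culture CD71- libraries, and fitted values against 0 counts are no bound. In culture, gene and host had the same sign in 37 of 80. Of the 27 genes that rose in tumor CD71- libraries against culture CD71- libraries and had a tested host, the host rose in 17, fell in 6 and did not pass in 4. For the 14 that fell, the host fell in 5, rose in 4 and did not pass in 5.

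**Figure D4:**
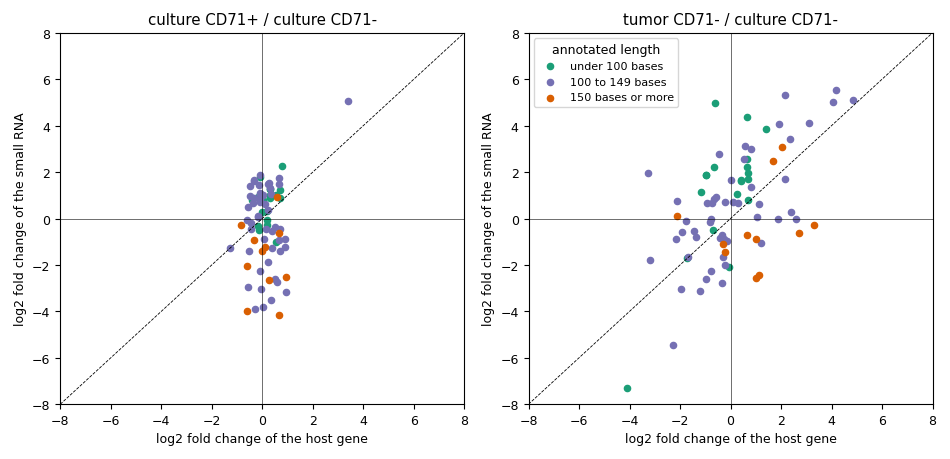
Fitted log2 fold change of each snoRNA or scaRNA gene against that of its host gene, for 80 genes, in culture CD71+ against culture CD71- (left) and tumor CD71- against culture CD71- (right), with colors for annotated length and a dashed line of equal change. On the left the genes of 150 bases or more spread below the line (r = 0.19 over all 80), and on the right r is 0.57 over all 80 but 0.22 over the 11 genes of 150 bases or more, 4 of which have the sign of the host, with 1 point at -7.28 (Gm22615) whose tumor CD71- libraries had 0 counts.

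Levels per kilobase were set against those of the host's exons in each group. The 12 genes of 150 bases or more with a host had a median ratio of gene to host exons of 1.4 in tumor CD71+ libraries, 1.75 in tumor CD71- libraries, 2.94 in culture CD71+ libraries and 12.8 in culture CD71- libraries. The 31 genes under 100 bases had median ratios of 0.524 in tumor CD71+, 0.583 in tumor CD71-, 0.409 in culture CD71+ and 0.19 in culture CD71- libraries. The 66 genes of at least 100 but under 150 bases had median ratios of 0.567 in tumor CD71+, 0.724 in tumor CD71-, 0.556 in culture CD71+ and 0.374 in culture CD71- libraries. Over all 109 the median was 0.574 in tumor CD71+, 0.724 in tumor CD71-, 0.561 in culture CD71+ and 0.398 in culture CD71- libraries. Gm25395 stood at 13 times the Atg16l1 exons per kilobase in tumor CD71+ libraries, 8.61 times in tumor CD71- libraries, 9.75 times in culture CD71+ libraries and 102 times in culture CD71- libraries. Of the 109, 36 stood above their host's exons in tumor CD71+ libraries, 46 in tumor CD71- libraries, 28 in culture CD71+ libraries and 35 in culture CD71- libraries.

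Sequence relatives in different hosts gave a view of shared counts. Among the 118 genes, 21 pairs shared at least 80% identity over their length, and 36 genes had another annotated row at 90% or more, so the authors' counting could split or drop their reads. Gm24727 and Gm25291 moved together, at -1.26 and -1.22 in the culture CD71 comparison, of which the first passed (adjusted p = 0.0147, edgeR) and the second did not (adjusted p = 0.0539, edgeR), while Gsr fell by 1.28 and Sec24a rose by 0.89 there. Gm25776 had 6.28 and 6.77 CPM in culture CD71+ libraries, against 38.8 and 155 CPM in culture CD71- libraries (-3.88 ± 0.77, adjusted p = 0.0251, edgeR). Gm25848 had 1.34 and 3.28 CPM, against 9.12 and 28.6 CPM (-3.02 ± 0.70, adjusted p = 0.0181, edgeR). Leaving out 1 library ended the calls of Gm24727 (either culture CD71+ library or culture CD71- replicate 1, adjusted p = 0.0896 to 0.132), Gm25776 (either CD71+ library of either origin, 0.0559 to 0.272, and 0.0671 with the replicate block) and Gm25848 (culture CD71+ replicate 1, 0.155, or culture CD71- replicate 2, 0.0571, edgeR for each). Neither host of that pair, the transcription factor gene Gtf2a1 and the F-box gene Fbxo45, passed there. A pair that did not move together was Snora57 and Gm26132, 95.9% identical, where Gm26132 in St3gal2 had 0.64 and 0.726 CPM in culture CD71+ libraries and 0.651 and 1.18 CPM in culture CD71- libraries (-0.38, adjusted p = 0.786, edgeR).

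Several genes of the particles that carry and process these RNAs rose in tumor CD71+ libraries. Of the 4 box C/D core proteins, Fbl and Nop56 rose and none fell. Fbl had 21.3 and 20 CPM in tumor CD71+ libraries, against 6.14 and 5.82 CPM in tumor CD71- libraries (log2 fold change 1.78, adjusted p = 0.00038, edgeR), and Nop56, a scaffold protein of the particle, was at 0.64 (adjusted p = 0.0313, edgeR). Of the 4 H/ACA core proteins, Dkc1 rose, with 8.27 and 9.13 CPM in tumor CD71+ libraries, against 1.54 and 1.39 CPM in tumor CD71- libraries (2.57, adjusted p = 0.00018, edgeR), as did Gar1 (1.59, adjusted p = 0.0181, edgeR), and none fell. Of 11 assembly factors 7 rose and none fell, among them Rpap3 (3.49, adjusted p = 0.00038, edgeR) and Shq1, the chaperone of dyskerin (3.34, adjusted p = 0.00127, edgeR). In the tumor CD71- libraries Rpap3 had 1 and 4 counts and Shq1 1 and 2 counts, so the size of both rises is poorly bounded. Of 10 genes of lariat and 3′ end processing 8 rose and none fell, among them Exosc2, an exosome subunit gene (2.52, adjusted p = 0.00062), and Parn, a deadenylase that trims H/ACA RNAs (1.64, adjusted p = 0.00068). Of 23 genes of the small subunit processome, the particle built around the U3 snoRNA, 10 rose and none fell, Utp20 by 2.66 (adjusted p = 2.1e-05) and Wdr75 by 2.22 (adjusted p = 0.00037). Of 9 Cajal body protein genes 2 rose and 1 fell. In these lists, Cajal body genes aside, no fall was seen by DESeq2 or at an unadjusted p under 0.05 by edgeR either, except for 2 processome genes by each. By DESeq2 fewer rose, with 1 of the C/D and 1 of the H/ACA core proteins, 5 assembly factors, 5 processing genes, 8 processome genes and 1 Cajal body gene. Over all genes 26.2% rose in this comparison, and the 10 dividing-cell markers summed to 134 to 200 CPM in tumor CD71+ libraries, against 45.3 to 58.4 CPM in tumor CD71- libraries.

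In culture few genes of the same protein lists passed, in a comparison in which 7.88% of all genes rose and 8.36% fell. Nop58 rose in culture CD71+ libraries (0.64, adjusted p = 0.0482, edgeR) and no other of the 8 core proteins passed. Naf1, an H/ACA assembly factor, rose by 1.23 (adjusted p = 0.0234), no gene of lariat and 3′ end processing passed (0 also by DESeq2 and at an unadjusted p under 0.05 by edgeR), and of the 23 processome genes 2 rose (Utp20 by 0.77 and Heatr1 by 0.68) and 2 fell (Utp3 by 1.12 and Bms1 by 0.87). Of the Cajal body genes Ice1 fell by 0.87 and Ell by 0.92. In tumor CD71- libraries against culture CD71- libraries, 8 of the 10 processing genes, 6 of the 9 Cajal body genes and 16 of the 23 processome genes fell, where 36.8% of all genes fell. Coil, the scaffold of the Cajal body, fell by 3.0 (adjusted p = 0.00029, edgeR). It had 3 and 4 counts in the tumor CD71- libraries, so the size of its fall is poorly bounded. Wrap53, which brings scaRNAs to Cajal bodies, fell by 2.22 (adjusted p = 9.6e-05, edgeR), while Heatr1 rose by 3.23 (adjusted p = 3.8e-09, edgeR) and Utp4 by 2.25 (adjusted p = 4.4e-07, edgeR). In tumor CD71+ libraries against culture CD71+ libraries 5 of the 9 Cajal body genes fell and 1 rose, where 27.6% of all genes fell and 30.3% rose.

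The libraries were checked against their labels. The 15 mature neutrophil markers were all present and summed to 15200 to 15700 CPM in tumor CD71+, 29600 to 32400 CPM in tumor CD71-, 4140 to 5260 CPM in culture CD71+ and 9100 to 9770 CPM in culture CD71- libraries. Macrophage and monocyte markers summed to 1110 to 1280 CPM in culture CD71+ libraries, against 700 to 760 CPM in culture CD71- libraries, where C1qa and Cd163 were at 0. Tfrc, the gene of CD71, did not follow the sort label in its transcript, with 103 and 108 CPM in tumor CD71+ libraries, against 187 and 145 CPM in tumor CD71- libraries (-0.65, adjusted p = 0.0134, edgeR), and 116 and 115 CPM in culture CD71+ libraries, against 131 and 94.3 CPM in culture CD71- libraries (0.03). CD71 was sorted as a surface protein, so each direction given above compares the libraries labelled CD71+ with those labelled CD71-.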

How the data were processed

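RNA was isolated with a Zymo Quick-RNA kit for small samples and sequenced as total RNA, after removal of ribosomal RNA (Ribo-Zero Plus), with a stranded Illumina kit, per the labels' protocols. The submitters' processing notes name mm10 as the build and list FastQC, cutadapt, STAR, featureCounts and DESeq2 as tools. Versions, the strand setting and the treatment of reads on overlapping or repeated genes are not given in the sources used here, so such genes are named as uncertain. The deposited values are raw read counts per gene, with 9598959 to 22615813 counts per library. No replicate pair held identical values.

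All 8 libraries entered edgeR 4.0.16, run under R 4.3.3. Filtering with filterByExpr over the 4 groups left 15975 genes, libraries were scaled by TMM factors, and 4 group means were fitted. The quasi-likelihood test was run for 5 comparisons with Benjamini-Hochberg adjustment over all genes tested, with 0.05 as the threshold. The model was tested on simulated data. CPM was computed on the scaled library sizes. A count of 0 allows up to 3 counts (0.0915 to 0.419 CPM), intervals and floors cover counting error only, and reads carry no molecular identifiers.

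Hosts, lengths and sequences were taken from GENCODE M21, whose IDs match the table. A host is a longer gene on the same strand that contains the small RNA. Identity is the edit distance over the longer sequence. Named genes were the Snord, Snora and scaRNA genes with most counts, up to 3 rises and 3 falls per comparison among those that passed with a mean of at least 2 CPM and without overlap of the groups, their hosts, the RNAs next to the limit, and genes of fixed lists. Genes outside that rule (Gm26165, Scarna6, Scarna9, Gm25636, Gm26448, Snora62, Gm26132, Gm22748 and the low-count genes) were chosen after their values were seen. The genes, lists and tests were chosen with earlier results of these data known. Alternatives were DESeq2 1.42.0 and its size factors, total counts, 2 other filters, a sum of at least 100, only the libraries compared, TMM without mitochondrial genes, a replicate block and leaving out each library.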

Additional observations from a re-analysis of the deposited data

Results flagged for a closer look

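The difference between the CD71 effect in the tumor and that in culture passed edgeR's quasi-likelihood test (Benjamini-Hochberg adjusted p under 0.05) at 15 of the 90 snoRNA and scaRNA genes tested (16.7%), where 15.5% of all genes passed. Values are the log2 fold change of CD71+ over CD71- in the tumor minus that in culture. Among box C/D and H/ACA snoRNAs with family names it was 4.73 at Snora57, 4.33 at Snora23, 3.19 at Snord15a, 2.66 at Snord17, 2.30 at Snora73b and -1.94 at Snord89. Among scaRNAs it was 3.54 at Gm25395, 2.44 at Scarna17 and 1.36 at Scarna6. Among the others it was 4.30 at Gm25776, 3.84 at Gm26165, 2.19 at Gm24119, 2.12 at Gm26397, -1.50 at Gm23722 and -2.30 at Gm24339. The difference at Gm25776 did not pass with no filter on low counts (adjusted p = 0.155, edgeR) or with the replicate block (adjusted p = 0.103, edgeR). Leaving out 1 culture CD71+ or tumor library gave 3.77 to 4.79 for Gm25776, and its call was lost each time. Its culture CD71- libraries were at 38.8 and 155 CPM. The 12 positive differences are at genes with lower levels in culture CD71+ than in culture CD71- libraries, where mitochondrial transcripts took 1.45% and 2.17% of counts in CD71+ libraries, against 7.09% and 12% in CD71- libraries. The part of mitochondrial share in these differences was not tested.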

How the results depend on the processing

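Counts are of snoRNA and scaRNA genes that passed. In the tumor CD71 comparison the 4 rises were 1 with the DESeq2 test, with a stricter filter or with a sum of at least 100, 2 with only the 4 libraries compared and 8 with total counts, and the 9 falls were 16 with DESeq2 size factors, 15 with the DESeq2 test and 5 with total counts. In culture the 2 rises were 4 with no filter, 1 with only the 4 libraries compared and 5 with total counts, and the 23 falls stayed within 1.5 times under every setting but the leaving out of either culture CD71+ library. Between tumor CD71- and culture CD71- the 29 rises were 14 with a stricter filter or total counts, and the 18 falls were 29 with total counts. Between tumor CD71+ and culture CD71+ the 28 rises were 17 with total counts, and the 4 falls were 1 with the DESeq2 test or a stricter filter, 2 with a sum of at least 100, 7 with only the 4 libraries compared and 9 with no filter or total counts.

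The median gene-minus-host difference on the log2 scale was 0.21 in culture (-1.35 with a stricter filter), 0.78 for tumor CD71- against culture CD71- (0.97 with no filter, -0.57 with a stricter filter) and -0.40 for the difference between CD71 effects (-0.61 with no filter, -0.01 with a stricter filter). The cause was not tested, beyond that the stricter filter tests fewer genes. With total counts Gm24727 (-0.9) and Tpt1 (-0.39), both tumor CD71- against culture CD71-, and Atg16l1 (-0.14, tumor CD71+ against culture CD71+) reversed.

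Leaving out 1 library gave 1 to 4 rises and 5 to 12 falls in the tumor, 0 to 4 and 10 to 25 in culture, 21 to 33 and 7 to 19 between the CD71- groups, 12 to 29 and 0 to 7 between the CD71+ groups, and 5 to 14 and 1 to 8 for the difference. The gene-minus-host medians ranged over -0.57 to -0.37, -0.02 to 0.80, 0.61 to 1.25, 0.32 to 0.77 and -0.93 to -0.26 in that order of comparisons. The shares were then those of the library left. Replicate numbers did not pair the samples (correlations of deviations between -0.14 and 0.07), and with the replicate block 22 fell in culture and 9 in the tumor. Depth limits the genes with few counts, 28 of which could not be tested.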
